A study of Mus with 6 samples.

Results

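Fatty acid oxidation breaks acyl chains into acetyl-CoA in mitochondria and, for very long, branched and dicarboxylic chains, first in peroxisomes. Long chains enter mitochondria as carnitine esters, a step set by carnitine palmitoyltransferase 1. In liver the acetyl-CoA feeds ketone body synthesis, and many genes of both organelles are targets of the nuclear receptor PPARa, which fatty acids activate.

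The genes described here are 35 of the 48882 in the deposited table. They were chosen by name from a list of 36 covering the carnitine shuttle, beta-oxidation in both organelles, ketone body enzymes and peroxisomal PPARa targets. The name Peci is an older symbol of Eci2 in the RefSeq gene table, so that both stand for 1 gene. By the place where the enzyme works, 20 were counted as mitochondrial and 10 as peroxisomal. Crat, Acad11 and Eci2 are known from both organelles or not settled, and Slc22a5 and Vnn1 act at the plasma membrane. The rule used no measured value, but the genes and their organelles were chosen with earlier results of these data known.

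RNA from flash-frozen liver was sequenced in 2 groups of 3 libraries, FABP4-/- (Fabp4 knockout, replicates 1 to 3) and wild type (WT, replicates 1 to 3), which the labels call littermates. All 6 libraries come from mice with alcoholic steatohepatitis (ASH), fatty liver with inflammation: both groups received the Lieber-Decarli ethanol diet, a liquid feed, for 8 weeks and then 1 ethanol binge. The labels name no cell type to which the deletion is limited nor the age or sex of the mice, and no ethanol-free livers enter the comparison. Values are TPM, a relative abundance corrected for transcript length, back-transformed from log2 values that look quantile normalized across libraries. Since read numbers are lost in this unit, depth is unknown and counting error could not be given.

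Fabp4 itself was listed at 0 in the 3 knockout libraries and at 14.7, 8.155 and 19.96 TPM in WT replicates 1, 2 and 3. It was the single gene past the threshold over all genes (limma, Benjamini-Hochberg adjusted p 0.0168). It missed the threshold without knockout replicate 1 (0.0922), knockout replicate 2 (0.157) or WT replicate 1 (0.176), with a pseudocount of 5 (0.209) and without the filter on low values (0.145). All 10 hepatocyte markers were present in every library, the lowest, Asgr1, at 140.3 to 173.5 TPM in the knockout and 161 to 209 TPM in WT. Alb, the highest, was at 1 value in all 6 libraries and says nothing of a difference, while Apob was at 919 to 1909 TPM in the knockout and 1299 to 1827 TPM in WT. Markers of endothelial cells (141 to 165 TPM in the knockout, 101 to 135 TPM in WT) and of stellate cells (290 to 366 TPM in the knockout, 246 to 306 TPM in WT) had positive differences for 8 of 8 genes each, stellate for 7 after quantile normalization and 6 without knockout replicate 1 or WT replicate 2, and endothelial for 7 without WT replicate 2. Differences were positive for 57.4% of all genes tested, for 4 of the 10 hepatocyte markers and for 10 of 10 macrophage markers, described below. Knockout replicate 1 also held adipocyte markers at 8.93 TPM in sum and striated muscle markers at 3.78 TPM, against at most 0.231 and 0.336 TPM in the other 5 libraries. Knockout replicate 1 on the second principal component and WT replicate 2 on the first were far from the other libraries (30.8 against -21.8 to 5.92, and -38.1 against -2.50 to 22.3). In whole liver, fewer cells of a type and less RNA per cell cannot be told apart. The labels do not say that each library is a separate mouse, and p-values measure only the spread between these libraries.

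The oxidation genes were abundant in every library. Together they held 0.978%, 1.07% and 0.966% of all TPM in knockout replicates 1, 2 and 3, against 1.14%, 0.870% and 0.942% in WT replicates 1, 2 and 3. All 35 passed the filter of a mean of 0.5 TPM. Acaa2, the mitochondrial thiolase that releases acetyl-CoA at the end of each cycle, was the most abundant in both groups, at 1118 ± 16.99 TPM (SD, n = 3) in the knockout and 1022 ± 104 TPM (SD, n = 3) in WT. Acaa1b, a peroxisomal thiolase, came next. At the other end stood Cpt1b, the muscle form of carnitine palmitoyltransferase 1, at 1.70 ± 0.480 TPM in the knockout and 3.08 ± 0.521 TPM in WT (SD, n = 3 each). Its liver counterpart Cpt1a exceeded it by 94.2 to 170-fold in the knockout and 92.3 to 119-fold in WT libraries.

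**Figure D1:**
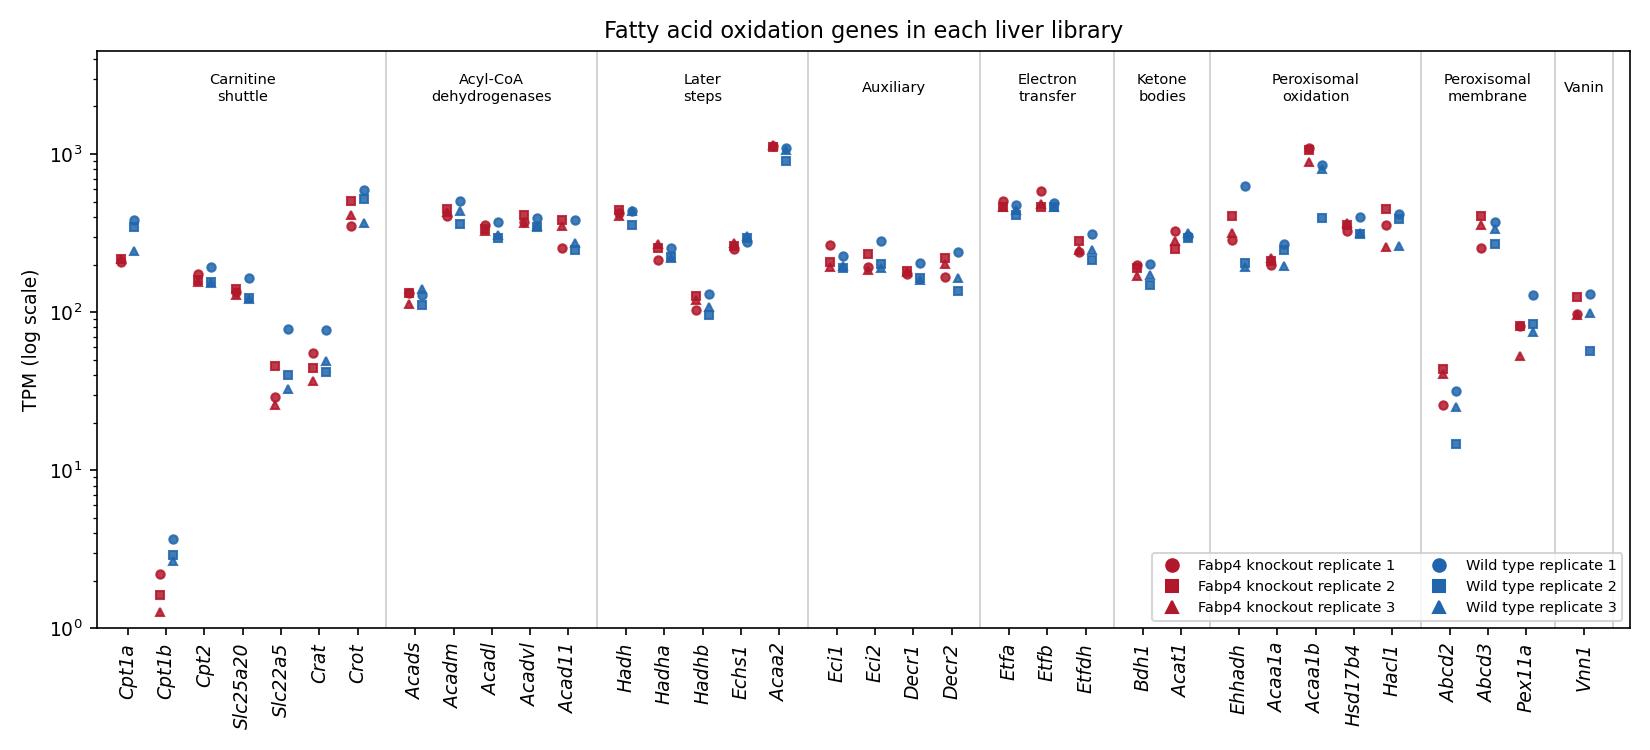
TPM (log scale) of the 35 genes in each of the 3 Fabp4 knockout libraries (red, left of each pair) and the 3 WT libraries (blue, right), grouped by role, 1 symbol per library. The groups overlap for most genes, Cpt1a and Cpt1b are lower in all 3 knockout libraries, and WT replicate 1 (blue circles) is often the highest point.

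The knockout was compared with WT to ask whether fatty acid oxidation transcripts differ when Fabp4 is missing in ASH. None of the 35 passed the threshold over all genes tested (limma, Benjamini-Hochberg adjusted p under 0.05), where 0.00706% of 14155 genes did, and the smallest adjusted p among the 35 was 0.536. Before adjustment, p was under 0.05 for 2 of the 35, Cpt1a and Cpt1b, against 8.03% of all genes tested. Both were lower in the knockout, as were 2.91% of all genes at this p, and 0 of the 35 were higher, against 5.12%. The 3 knockout values lay wholly outside the 3 WT values for 5 of the 35, against 13.3% of all genes. Acaa1b and Acaa2 were higher (8.94% of all genes were), and Cpt1a, Cpt1b and Echs1 were lower (4.38% of all genes were). The count of 5 is close to the share seen over all genes.

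The typical gene of the 35 was close to equal in the 2 groups. On the log2(TPM + 1) scale, on which a pseudocount of 1 understates the change of low genes, the median knockout minus WT difference was 0.0351, against 0.0383 over all genes tested. For 28 of the 35 the difference was smaller than 0.25 in either direction, against 10192 of the 14155 genes tested. Of the 35, 21 were above 0 and 14 below, where 57.4% of all genes tested lay above 0, and after median scaling 17 lay above 0 and after a further quantile normalization 19. WT replicates 1 and 2 decide on which side most of the genes lie: 26 lay above 0 without WT replicate 1, and 11 without WT replicate 2, with medians of 0.133 and -0.0707.

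**Figure D2:**
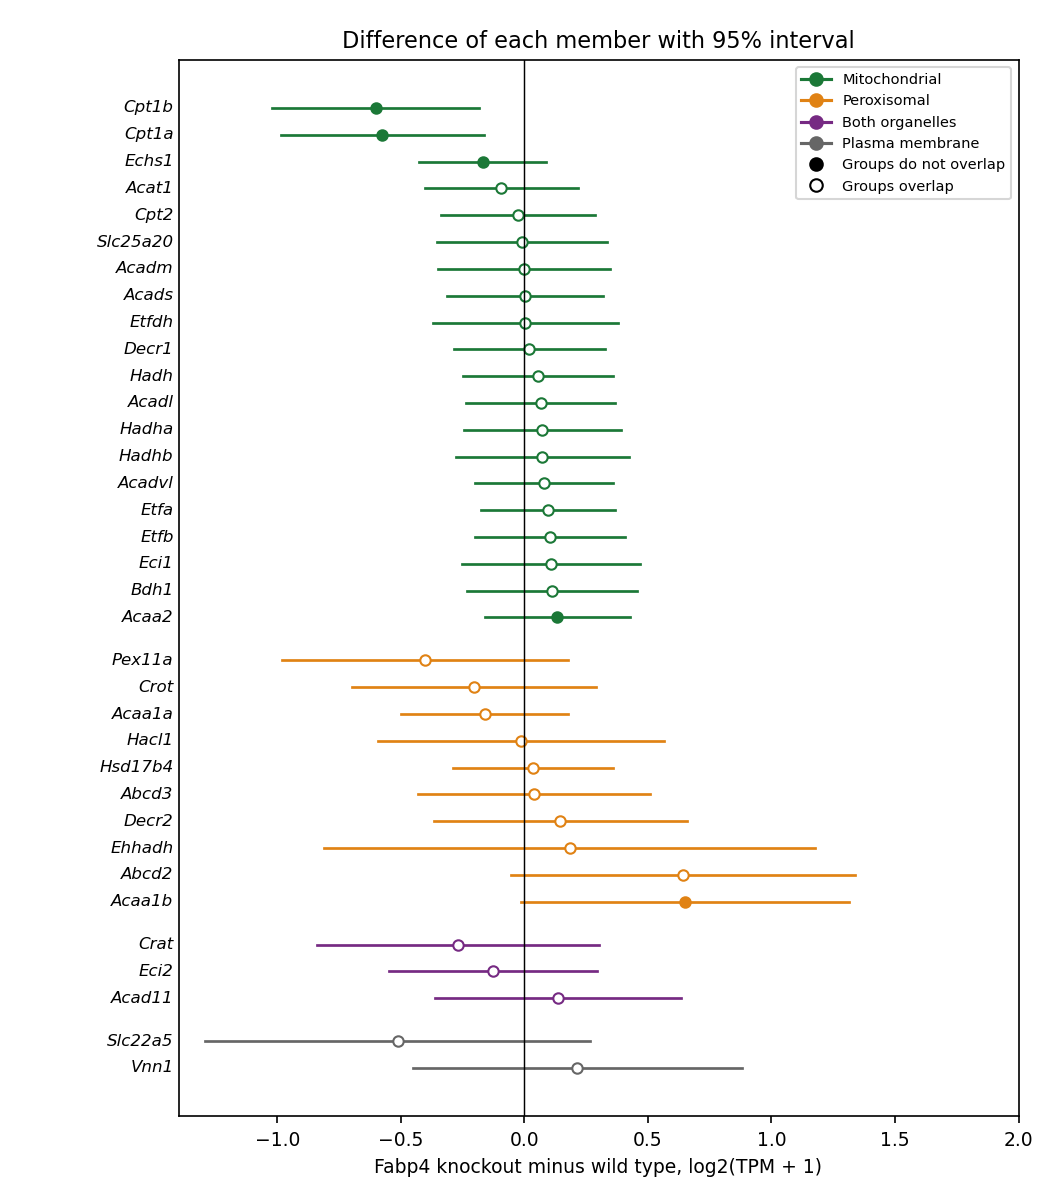
Knockout minus WT difference on the log2(TPM + 1) scale with its 95% interval from limma for the 35 genes, ordered within organelle, with filled points for genes whose groups do not overlap. The intervals of Cpt1a and Cpt1b lie below 0 before adjustment for multiple tests, the intervals of all other genes shown include 0, and most peroxisomal intervals are wider than the mitochondrial ones.

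The carnitine shuttle, which moves acyl groups across membranes, held the genes with the lowest knockout values relative to WT. Its 7 members all had a negative difference, with a median of -0.27, as had 6030 of the 14155 genes tested. All were negative after median scaling and quantile normalization too. Cpt2 (-0.025) and Slc25a20 (-0.010) were near equal between groups and turned positive without knockout replicate 3 or WT replicate 1. The median was -0.058 without WT replicate 1 and -0.45 without WT replicate 2. Cpt1a (mm10 chromosome 19, 3322325 to 3385735, plus strand), which attaches carnitine to long chains at the outer mitochondrial membrane, was at 209, 218 and 216 TPM in knockout replicates 1, 2 and 3 and at 385, 347 and 245 TPM in WT replicates 1, 2 and 3. All knockout libraries lay below all WT libraries, WT replicate 3 came nearest, and the knockout libraries lay closer to each other than the WT libraries did. The mean level was 0.658 times that of WT, a log2 difference of -0.58 (SE 0.18, 95% interval -0.99 to -0.16, limma adjusted p 0.536, unadjusted p 0.0124). With 3 libraries a group, an exact two-sided permutation test cannot go below p = 0.1, which Cpt1a reached. Without WT replicate 3 the difference was -0.77, and without WT replicate 1 it was -0.44.

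Cpt1b (chromosome 15, 89416405 to 89425862, minus strand) was at 2.22, 1.62 and 1.27 TPM in knockout replicates 1, 2 and 3, against 3.66, 2.92 and 2.65 TPM in WT replicates 1, 2 and 3. Its groups did not overlap either (log2 -0.60, SE 0.18, limma adjusted p 0.536). The highest knockout value was that of replicate 1, the library with striated muscle transcripts such as Acta1 (1.75 TPM) and Ckm (1.27 TPM). Without this library the difference was -0.74. The part of muscle RNA in the level of Cpt1b was not tested. The size of the difference depends on the pseudocount, -0.84 at 0.1 and -0.27 at 5. The table also lists Gm44502, a gene on the same strand that overlaps Cpt1b, at 8.05 to 13.2 TPM in the knockout and 10.9 to 15.6 TPM in WT, so that reads may be split between them and the level of Cpt1b is uncertain.

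The next steps of the shuttle were near equal between groups. Cpt2, which returns the acyl group to coenzyme A on the matrix side, averaged 163 ± 9.37 TPM in the knockout and 167 ± 22.8 TPM in WT (SD, n = 3 each; log2 -0.025, SE 0.13). Slc25a20, the carnitine-acylcarnitine exchanger of the inner membrane, averaged 134 ± 5.98 TPM in the knockout and 136 ± 24.7 TPM in WT (SD, n = 3 each; log2 -0.010, SE 0.15). A common factor on all values of a library does not change a ratio of 2 genes, but quantile normalization can. With Cpt2 near equal, the ratio of Cpt1a to Cpt2 TPM mostly repeats the Cpt1a values. It was 1.20, 1.36 and 1.38 in the knockout and 1.99, 2.24 and 1.60 in WT libraries, without overlap. This ratio, like the others below, was chosen after the values were seen.

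The groups overlapped for the other carnitine genes. Slc22a5, the sodium-dependent carnitine importer of the plasma membrane, was at 29.2, 45.7 and 26.0 TPM in knockout replicates 1, 2 and 3, against 78.1, 40.3 and 32.9 TPM in WT replicates 1, 2 and 3 (log2 -0.51, SE 0.34). WT replicate 1 was far above the other 5, and without it the difference was -0.15. Crat, the short-chain acetyltransferase, averaged 45.3 ± 9.16 TPM in the knockout and 55.9 ± 18.5 TPM in WT (SD, n = 3 each; log2 -0.27, SE 0.24). Crot, which makes medium-chain carnitine esters in peroxisomes, was at 352, 502 and 411 TPM in the knockout and 589, 518 and 364 TPM in WT libraries (log2 -0.20, SE 0.21), with overlapping groups.

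The acyl-CoA dehydrogenases, which take the first electrons from the chain, were near equal between groups. The log2 differences of Acads, Acadm, Acadl and Acadvl, for short, medium, long and very long chains, were 0.0019, -0.00083, 0.066 and 0.080, with SEs of 0.14, 0.15, 0.13 and 0.12. Acadm, the medium-chain enzyme, was at 405, 449.7 and 433 TPM in knockout replicates 1, 2 and 3 and at 504, 361 and 435 TPM in WT replicates 1, 2 and 3, where the WT values enclosed the knockout values. Its 95% interval spans -0.35 to 0.35 on the log2 scale. Acad11, a dehydrogenase that prefers longer chains, averaged 329 ± 64.9 TPM in the knockout and 301 ± 72.6 TPM in WT (SD, n = 3 each). Electrons from these enzymes pass to the flavoprotein subunits Etfa and Etfb and then to Etfdh, whose log2 differences were 0.096, 0.10 and 0.0036. The sign of Etfdh, the smallest of them, turned negative after median scaling and quantile normalization. Etfa and Etfb form a heterodimer, and their TPM ratio was 0.862 to 0.996 in knockout and 0.890 to 0.968 in WT libraries.

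The later mitochondrial steps hydrate, oxidize and cleave the chain, and most of them were near equal between groups. Hadha and Hadhb, the subunits of the trifunctional protein for long chains, averaged 246 ± 29.8 and 116 ± 11.8 TPM in the knockout and 233 ± 19.1 and 111 ± 17.1 TPM in WT (SD, n = 3 each). Hadh, the dehydrogenase for shorter chains, had a log2 difference of 0.055 (SE 0.13). Echs1, the short-chain hydratase, was lower in every knockout library, at 249, 261 and 272.5 TPM in knockout replicates 1, 2 and 3, against 279, 296 and 305 TPM in WT replicates 1, 2 and 3. The gap was small (log2 -0.17, SE 0.11, limma adjusted p 0.750), and Echs1 overlaps Paox on the other strand, which was at 9.69 to 12.1 TPM in the knockout and 11.3 to 19.1 TPM in WT. Acaa2 was higher in every knockout library, at 1121, 1100 and 1134 TPM in knockout replicates 1, 2 and 3, against 1098, 904 and 1065 TPM in WT replicates 1, 2 and 3. The nearest values of the 2 groups differed by less than the spread within either group, and the log2 difference was 0.13 (SE 0.13, limma adjusted p 0.831). The groups overlapped after median scaling.

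Auxiliary enzymes rearrange the double bonds of unsaturated chains so that they can enter the cycle. The mitochondrial isomerase Eci1 and reductase Decr1 had log2 differences of 0.11 (SE 0.15) and 0.020 (SE 0.13). Decr2, the peroxisomal reductase, was at 166.5, 221 and 200.5 TPM in the knockout and 241.5, 136 and 166 TPM in WT libraries (log2 0.15, SE 0.22). Eci2, an isomerase of both organelles, was highest in WT replicate 1 at 283 TPM, with 185 to 233 TPM in the knockout and 191 and 201 TPM in the other WT libraries.

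Of the ketone body enzymes among the 35, neither differed beyond its spread. Acat1, the mitochondrial acetoacetyl-CoA thiolase, averaged 287 ± 38.6 TPM in the knockout and 305 ± 10.5 TPM in WT (SD, n = 3 each; log2 -0.094, SE 0.13). Bdh1, which converts acetoacetate to 3-hydroxybutyrate, averaged 187 ± 14.9 TPM in the knockout and 174 ± 27.3 TPM in WT (SD, n = 3 each; log2 0.11, SE 0.15).

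Peroxisomal oxidation differed from gene to gene. Ehhadh, the L-bifunctional enzyme and a strong PPARa target, was at 284, 407 and 315 TPM in knockout replicates 1, 2 and 3, against 629, 205 and 193 TPM in WT replicates 1, 2 and 3. The 3 knockout libraries lay between the high WT replicate 1 and the low WT replicates 2 and 3, and the log2 difference of 0.18 (SE 0.43) was smaller than the spread. Without WT replicate 1 it was 0.735 with an unadjusted p of 0.00682 (limma adjusted p 0.498). Hsd17b4, the D-bifunctional enzyme of branched and very long chains, varied far less, at 326 to 368 TPM in the knockout and 312 to 400 TPM in WT (log2 0.035, SE 0.14). The Ehhadh to Hsd17b4 ratio was therefore 0.871, 1.15 and 0.857 in the knockout and 1.57, 0.659 and 0.607 in WT libraries. Hacl1, which cleaves 2-hydroxy acids after alpha-oxidation, averaged 355 ± 97.2 TPM in the knockout and 355 ± 81.3 TPM in WT (SD, n = 3 each).

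The peroxisomal thiolases are encoded by 2 genes on chromosome 9, Acaa1a (119341052 to 119350296, plus strand) and Acaa1b (119148043 to 119157093, minus strand). Acaa1b was at 1094, 1065 and 896 TPM in knockout replicates 1, 2 and 3, against 849.8, 395 and 804 TPM in WT replicates 1, 2 and 3. Every knockout library exceeded every WT library, and WT replicate 2 was far below the rest. The log2 difference was 0.65 (SE 0.29, limma adjusted p 0.644, unadjusted p 0.0544; exact two-sided permutation p = 0.1), and without WT replicate 2 it was 0.295. Acaa1b also overlaps Dlec1 on the other strand, listed at 2.50 to 3.90 TPM in the knockout and 2.01 to 2.71 TPM in WT. Acaa1a was at 200.1, 209 and 219.5 TPM in the knockout and 269, 246 and 195 TPM in WT libraries (log2 -0.16, SE 0.15). These closely related genes can share reads, so their separate values are uncertain. Their summed level was 1294, 1274 and 1115 TPM in the knockout and 1118.5, 641 and 999 TPM in WT libraries, and these ranges overlapped. The ratio of Acaa1b to Acaa1a was 5.47, 5.09 and 4.08 in the knockout, against 3.16, 1.61 and 4.12 in WT libraries.

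Of the peroxisomal membrane genes, Abcd2 and Pex11a differed in opposite directions without passing. Abcd2, a transporter for very long and polyunsaturated acyl-CoA, was at 25.9, 43.6 and 40.9 TPM in knockout replicates 1, 2 and 3, against 31.5, 14.6 and 25.2 TPM in WT replicates 1, 2 and 3 (log2 0.64, SE 0.30, limma adjusted p 0.669). Knockout replicate 1 lay within the WT range; without it the groups did not overlap (log2 0.87, limma adjusted p 0.506), and without WT replicate 2 the difference was 0.34. Adipocyte markers were highest in knockout replicate 1, which had the lowest Abcd2 of the knockout libraries. The part of adipocyte RNA in the level of Abcd2 was not tested. Abcd3, the more abundant of these transporters, averaged 338 ± 76.4 TPM in the knockout and 326 ± 50.1 TPM in WT (SD, n = 3 each). The ratio of Abcd2 to Abcd3 was 0.102, 0.108 and 0.115 in the knockout, against 0.0853, 0.0538 and 0.0746 in WT, without overlap. Pex11a, a PPARa-induced factor of peroxisome division, was at 82.05, 81.6 and 52.6 TPM in knockout replicates 1, 2 and 3, against 129, 84.3 and 75.3 TPM in WT replicates 1, 2 and 3 (log2 -0.40, SE 0.25). An unnamed gene on the other strand overlaps Pex11a, at 4.82 to 8.45 TPM in the knockout and 3.58 to 18.3 TPM in WT. Vnn1, a pantetheinase at the cell surface and a PPARa target, was at 96.8, 124.5 and 96.4 TPM in the knockout and 131, 56.9 and 99.3 TPM in WT libraries (log2 0.21, SE 0.29).

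**Figure D3:**
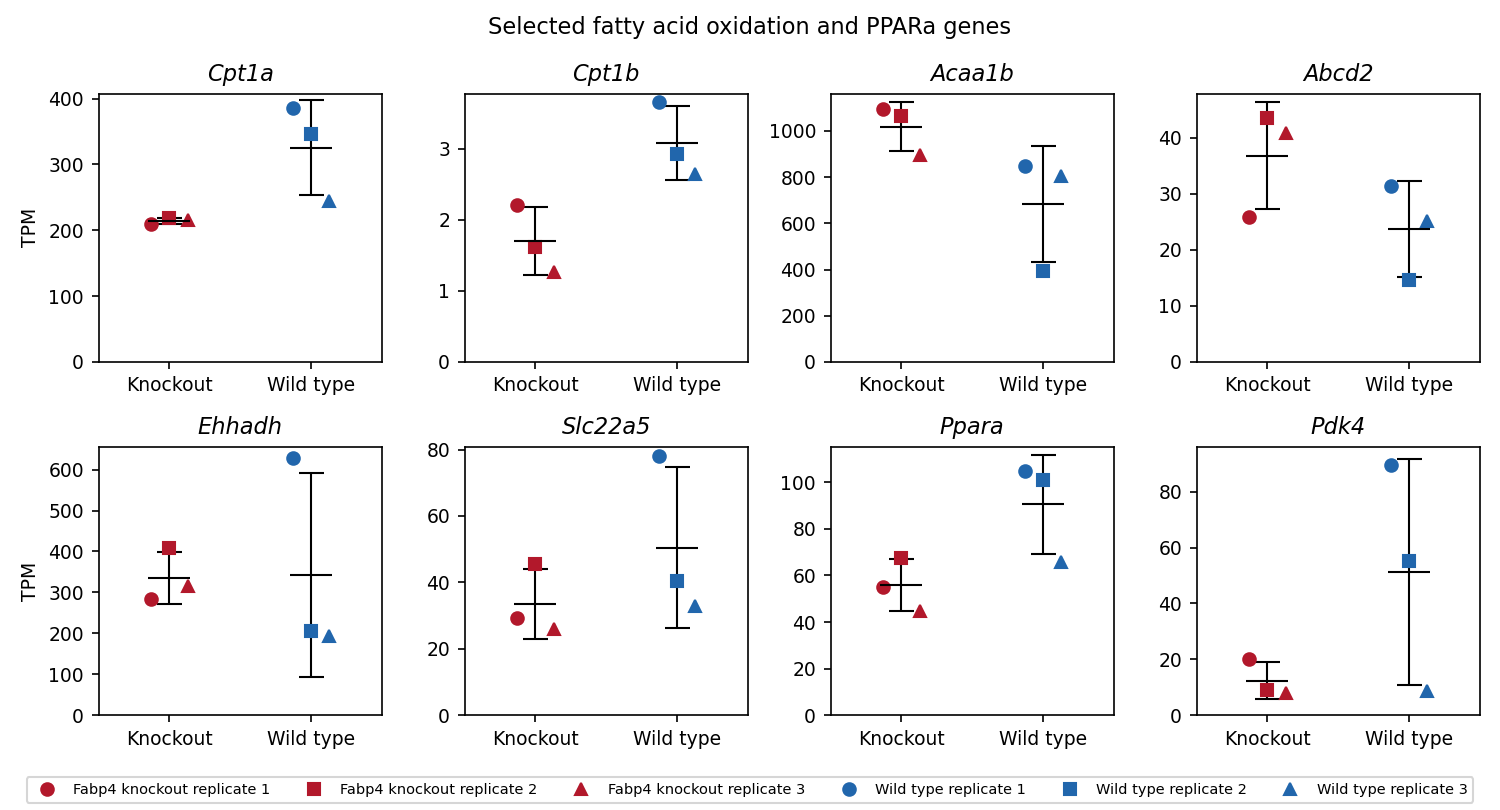
TPM in each Fabp4 knockout library (red, left) and each WT library (blue, right) for 6 of the 35 genes and for Ppara and Pdk4, with mean and SD as black bars. Cpt1a and Cpt1b are lower and Acaa1b higher in all 3 knockout libraries, Ehhadh and Slc22a5 are highest in WT replicate 1, and WT replicate 3 lies nearest to the knockout for Cpt1a, Ppara and Pdk4.

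The gap between the organelles in the knockout minus WT difference was smaller than the spread between libraries. The median log2 difference was 0.0375 for the 20 mitochondrial genes and 0.0371 for the 10 peroxisomal genes, beside 0.0383 for all genes tested. These medians cover genes that differ both ways, and they part when 1 library is left out: 0.0336 for mitochondrial and 0.157 for peroxisomal genes without knockout replicate 1, and 0.0352 and -0.0653, in the same order, without WT replicate 3. Of the mitochondrial genes 13 were above 0 and of the peroxisomal genes 6, counts that became 10 and 5 after median scaling. Without WT replicate 1 they were 16 and 7, and without WT replicate 2 they were 7 and 3. A score per library, the mean of a gene's log2(TPM + 1) minus its mean over libraries, was 0.019, -0.0032 and -0.058 for mitochondrial genes in knockout replicates 1, 2 and 3, and 0.17, -0.099 and -0.029 in WT replicates 1, 2 and 3. For peroxisomal genes it was -0.087, 0.24 and -0.020 in the knockout and 0.36, -0.285 and -0.21 in WT libraries. The knockout libraries thus lay within the WT range for either organelle. The knockout mean minus the WT mean of the score was -0.028 for mitochondrial and 0.092 for peroxisomal genes. The peroxisomal score minus the mitochondrial one averaged 0.059 ± 0.18 in the knockout and -0.059 ± 0.215 in WT (SD, n = 3 each), a difference of 0.12 and smaller than the SDs. Summed TPM gave peroxisomal to mitochondrial ratios of 0.508, 0.617 and 0.523 in the knockout and 0.599, 0.467 and 0.465 in WT libraries. Without Acaa1b, the most abundant peroxisomal member, the mean ratio was 0.382 ± 0.056 in the knockout and 0.398 ± 0.070 in WT (SD, n = 3 each).

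**Figure D4:**
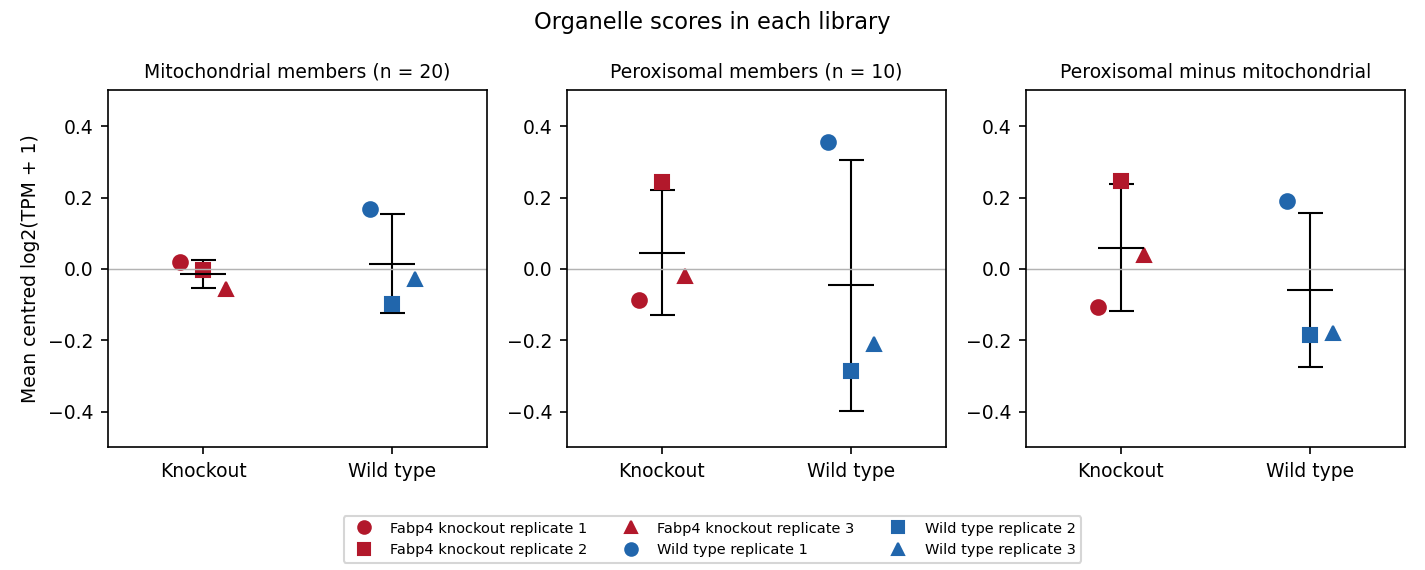
Mean centred log2(TPM + 1) of the mitochondrial genes, of the peroxisomal genes and of their difference in each Fabp4 knockout library (red, left) and each WT library (blue, right), with mean and SD as black bars. WT replicate 1 is the highest library for both organelles (0.17 and 0.36) and WT replicate 2 the lowest (-0.099 and -0.285). For either organelle the knockout libraries lie between them. In the peroxisomal minus mitochondrial difference, knockout replicate 2 (0.247) lies above WT replicate 1 (0.189).

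Peroxisomal genes varied more between libraries of 1 group than mitochondrial genes did, a description with no test. The median SD of a gene on the log2(TPM + 1) scale was 0.261 in the knockout and 0.382 in WT for peroxisomal genes, and 0.0867 in the knockout and 0.176 in WT for mitochondrial genes. Over all genes tested it was 0.185 in the knockout and 0.199 in WT. WT had the larger SD for 28 of the 35 genes, against 54.1% of all genes tested. The WT spread lay in replicates 1 and 2. WT replicate 1 was the highest of the 6 libraries for 21 of the 35, against 16.0% of all genes tested, and the lowest for none. WT replicate 2 was the lowest for 17, against 24.3% of all genes, and the highest for none. These are descriptions of single libraries. Macrophage markers also varied, at 451, 500 and 927 TPM in sum in knockout replicates 1, 2 and 3, beside 596, 203 and 281 TPM in WT replicates 1, 2 and 3. The part of cell makeup in the spread of the oxidation genes was not tested.

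Genes of the same pathway outside the 35 were read from 6 lists, and none of their members passed over all genes tested (limma, Benjamini-Hochberg). Among 14 further peroxisomal oxidation and import genes, 7 were higher and 7 lower. Nudt7, a peroxisomal hydrolase of coenzyme A, was lower in all 3 knockout libraries (log2 -0.46, SE 0.16), as 4.38% of all genes tested were. Its nearest values, 25.46 TPM in knockout replicate 1 and 25.7 TPM in WT replicate 1, almost met. Pecr and Nudt19 had log2 differences of 0.30 and 0.26.

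Further mitochondrial oxidation and ketogenesis genes were higher for 5 and lower for 11 of 16, with a median log2 difference of -0.036. The direction rests on single libraries, with 9 higher and 7 lower (median 0.031) without knockout replicate 1 and 8 each way without WT replicate 3. The smallest p-values belonged to Acad10 (log2 -0.24), the methylmalonyl-CoA mutase gene Mut (-0.28), Mlycd (-0.34), which removes malonyl-CoA, an inhibitor of carnitine palmitoyltransferase 1, and Hsd17b10 (-0.17). Of 12 tested acyl-CoA synthetase genes 8 were lower, Acsl4 in all 3 knockout libraries (log2 -0.58, SE 0.25), with smaller differences for Acsl5 (-0.15), Acsm1 (-0.22) and Slc27a5 (-0.15). Of all genes tested, 4.38% were lower in all 3 knockout libraries, as Acsl4 was. The nearest Acsl4 values were 31.83 TPM in knockout replicate 1 and 32.35 TPM in WT replicate 3. Without WT replicate 3 the synthetases were 8 higher and 4 lower (median 0.044), and Acsl4 was at -0.32 without knockout replicate 2. Peroxisome biogenesis genes were split, 8 higher and 7 lower, and after median scaling or quantile normalization 7 higher and 8 lower, with 5 higher and 10 lower without WT replicate 2. Pex3, a factor of peroxisomal membrane assembly, was lower in all 3 knockout libraries (log2 -0.17, SE 0.11), as 4.38% of all genes tested were. Pex16 and Pex26 had log2 differences of -0.21 and -0.37. The nearest Pex3 values were 21.75 TPM in knockout replicate 3 and 22.25 TPM in WT replicate 3.

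Ppara, the receptor that many of these genes answer to, was at 55.2, 67.3 and 44.9 TPM in knockout replicates 1, 2 and 3, against 105, 101 and 65.95 TPM in WT replicates 1, 2 and 3 (log2 -0.68, SE 0.22, limma adjusted p 0.542). Knockout replicate 2 slightly exceeded WT replicate 3, so the groups overlapped. Its partner genes Rxra and Rxrb had log2 differences of -0.29 (SE 0.16) and -0.25 (SE 0.17). The mitochondrial deacetylase gene Sirt3 was higher in all 3 knockout libraries (log2 0.22, SE 0.12), as 8.94% of all genes tested were. The nearest Sirt3 values were 46.29 TPM in knockout replicate 3 and 45.71 TPM in WT replicate 3. Of this list of 13, 8 were lower, 10 after median scaling or quantile normalization, and 6 without knockout replicate 1.

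PPARa targets outside oxidation went both ways, 6 higher and 11 lower of 17 tested, with a median log2 difference of -0.16. The median was -0.34 without knockout replicate 1, and -0.025 or -0.026 without knockout replicate 3 or WT replicate 1. Ucp2, a mitochondrial carrier that macrophages also express, was at 51.3, 64.5 and 63.2 TPM in the knockout and 44.7, 23.0 and 28.1 TPM in WT libraries (log2 0.93, SE 0.24, limma adjusted p 0.522). Macrophage markers were above 0 for 10 of 10 genes, with a median log2 difference of 0.84 (0.47 without knockout replicate 3, 0.45 without WT replicate 2), and their part in the level of Ucp2 was not tested. Plin2, the lipid droplet coat gene, was at 511.5, 444.5 and 415 TPM in the knockout and 934, 729 and 564 TPM in WT libraries (log2 -0.67, SE 0.20, limma adjusted p 0.536). Fabp1, the liver fatty acid-binding protein, had a log2 difference of 0.47 (SE 0.20). Pdk4, a kinase that shuts pyruvate out of oxidation, was at 19.98, 8.98 and 7.94 TPM in knockout replicates 1, 2 and 3, against 89.7, 55.2 and 8.79 TPM in WT replicates 1, 2 and 3 (log2 -1.58, SE 0.77, limma adjusted p 0.683). WT replicate 3 lay among the knockout libraries for Pdk4.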

How the data were processed

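Liver RNA of 3 Fabp4 knockout and 3 wild type libraries was sequenced. FastQC, Trimmomatic and the build mm10 are named per the submitters' processing notes; for aligner, quantification, annotation and strandedness the sources used here give nothing. The value columns carry TPM in their names, per the file headers. As deposited by the authors they hold log2 values (-8.88 to 16.59) whose sorted values nearly coincide across libraries, as after quantile normalization, so a shift of all genes cannot be seen. Depth is unknown, and the 3 libraries per group limit the precision. Blank values were taken as 0. Values were back-transformed to TPM, and log2(TPM + 1) of the 14155 genes with a mean of at least 0.5 TPM was tested with limma 3.58.1 in R 4.3.3 (trend, two-sided, group as the only term), Benjamini-Hochberg adjusted over all genes tested, threshold 0.05, and tested on simulated data. All 6 value columns were used and 0 left out.

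The 35 genes, their organelles and the pathway lists were chosen with earlier results of these data known. All 35 are named, with up to 4 genes of each pathway list by smallest p, apart from some that are not reported here. The alternatives changed the pseudocount, filter, scaling, variance trend, organelle assignment and replicates. Leaving out knockout replicate 1 and wild type replicate 2 together was chosen after seeing the data.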

Additional observations from a re-analysis of the deposited data

How the results depend on the processing

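Under 15 alternatives no member of the 35 passed the threshold (0 of 524 fits), and 510 of the differences stayed within 1 SE of the value reported. The 510 says little of stability. Leaving out 1 of 3 libraries can hardly move a difference by more than 1 SE by construction. The replicate block, the variance trend and the filter leave a difference unchanged. The sign changed under some alternative for 19 of the 35, each with a reported difference of at most 0.215 on the log2 scale. The 25 pathway genes followed had 0 calls in 375 fits, and 1, Slc27a5, changed sign. The 1 gene past the threshold, Fabp4, became 0 genes with a pseudocount of 5 or without the filter, 3 without knockout replicate 1 and WT replicate 2 together, and 0 to 6 when 1 replicate was left out (0 without knockout replicate 2 or WT replicate 1, 4 without knockout replicate 3, 6 without WT replicate 3). Members with an unadjusted p under 0.05, 2 as reported, were 1 with a filter at 5 TPM, which removes Cpt1b, and 2 to 5 when 1 replicate was left out, 5 without WT replicate 1. Without knockout replicate 1 and WT replicate 2 together the 2 were Cpt1b and Abcd2, and Cpt1a had a limma unadjusted p of 0.0744. Members whose groups did not overlap, 5 as reported, were 8 without knockout replicate 1 and WT replicate 2 together. They were 5 to 15 when 1 replicate was left out, 15 without WT replicate 1 and 8 without WT replicate 3. With fewer libraries groups overlap less often by construction. The share over all genes was 37.7% without both libraries, 24.5% without WT replicate 1 and 26.3% without WT replicate 3. Thus 8 of the 35 is below the share over all genes in either setting that gave it. The 15 of the 35 without WT replicate 1 are above the share over all genes in that setting. The peroxisomal minus mitochondrial difference moved by less than its SD under all alternatives run. Leaving out 1 of 3 libraries cannot move this difference by a whole SD, so those settings could not have shown otherwise. The SD (0.197) exceeds the difference (0.119), so a move within the SD can still take the difference away. Deviations from the group means correlated at -0.26, -0.27 and -0.049 between libraries of equal replicate number, and at -0.057 to 0.28 between those of unequal number. With 3 libraries a group, these values cannot tell whether equal numbers mark related libraries. A fit with the replicate block gave 0 genes past the threshold and 2 members with an unadjusted p under 0.05. Unknown depth limits the low genes most, Cpt1b above all.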
